A study of Rattus norvegicus with 6 samples.

Results

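The kinase genes of the mitogen-activated protein (MAP) kinase cascade were examined in rat myocardium after 30 min of ischemia. They were chosen by gene name, as every row of the deposited table named Mapk, Map2k, Map3k or Map4k followed by a number. This rule found 41 of 32623 genes, with 13 in the Mapk tier, 7 in the Map2k tier, 16 in the Map3k tier and 5 in the Map4k tier. The rule reads names only, but the kinases were picked as a subject with earlier results of these data known. RNA sequencing had been performed on total RNA of myocardial tissue from 3 sham and 3 ischemia samples. All samples came from wild-type (WT) rats, described as male, that were anesthetized, ventilated and opened by left thoracotomy. In the ischemia group the left anterior descending coronary artery was tied, whereas no ligation is described for the sham group, and the titles give 30 min for both. Strain, age and the sampled region of the heart were not given in the sources used here. The labels do not say whether each sample came from a separate rat, so p-values measure the spread between these samples.

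MAP kinases act at the end of a relay of protein kinases, in which a Map4k can act on a Map3k, the Map3k phosphorylates a Map2k, and the Map2k phosphorylates a Mapk on a threonine and a tyrosine. The best known branches end in the ERK kinases (such as Mapk3), the p38 kinases (Mapk11 to Mapk14), the JNK kinases (Mapk8 to Mapk10) and Mapk7. In heart muscle the p38 and JNK branches are known for their response to stress, including ischemia. The relay is switched by phosphorylation, which RNA levels do not measure.

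Total counts ranged from 68529126 to 79591989 per library, and the 41 kinase genes took from 0.120% to 0.126% of them in sham and from 0.137% to 0.174% in ischemia. Several libraries differed in ways that the groups do not give. Summed FPKM (counts scaled to gene length and library size) of 4 atrial muscle genes was 48340 and 39200 in sham replicates 1 and 3 but 215 in sham replicate 2, and ranged from 1279 to 9610 in ischemia. Summed FPKM of 12 neutrophil and monocyte genes was 121 to 207 in sham and 1299 to 8707 in ischemia, with the highest value in ischemia replicate 2, and for 10 of the 12 genes every ischemia value exceeded every sham value. Endothelial markers summed to 144 to 195 in sham and 168 to 215 in ischemia, fibroblast markers to 344 to 1149 against 179 to 439, and smooth muscle and pericyte markers to 209 to 937 against 89.4 to 287. On 3 Y-linked genes sham replicate 1 held 26 counts and the other libraries 1772 to 4318, although the rats were described as male. In bulk tissue, fewer cells of a type and less RNA per cell cannot be told apart.

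The levels of the kinases spanned a wide range. The members with the highest mean FPKM in their tiers were Map2k2 (MEK2, an activator of ERK), Mapk3 (ERK1), Map4k4 and Map3k11 (MLK3, a mixed-lineage kinase). FPKM of Map2k2 was 63.8, 74.5 and 70.5 in sham against 87.8, 57.9 and 63.4 in ischemia. FPKM of Mapk3 was 70.7, 68.1 and 82.2 in sham against 66.6, 58.4 and 55.9 in ischemia. The 2 groups overlapped for Map2k2, whereas all ischemia values of Mapk3 lay below all sham values. FPKM of Map4k4 was 15.8, 14.6 and 16.2 in sham against 15.6, 37.6 and 19.9 in ischemia, and that of Map3k11 was 13.85, 20.8 and 16.6 in sham against 19.3, 25.9 and 18.9 in ischemia. Both overlapped between the groups. In all, 14 of the 41 genes had a mean FPKM of at least 10, namely 4 of the Mapk, 5 of the Map2k, 3 of the Map3k and 2 of the Map4k tier. Mapk4 and Mapk15, both atypical MAP kinases, and Map3k13 and Map3k21 had a mean FPKM below 0.5 and were not tested, which left 37 genes. Map3k2, Map3k9, Mapk10 and Mapk13 reached a mean FPKM of 0.5 in 1 group only and so passed this filter through the group in which they were higher.

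**Figure D1:**
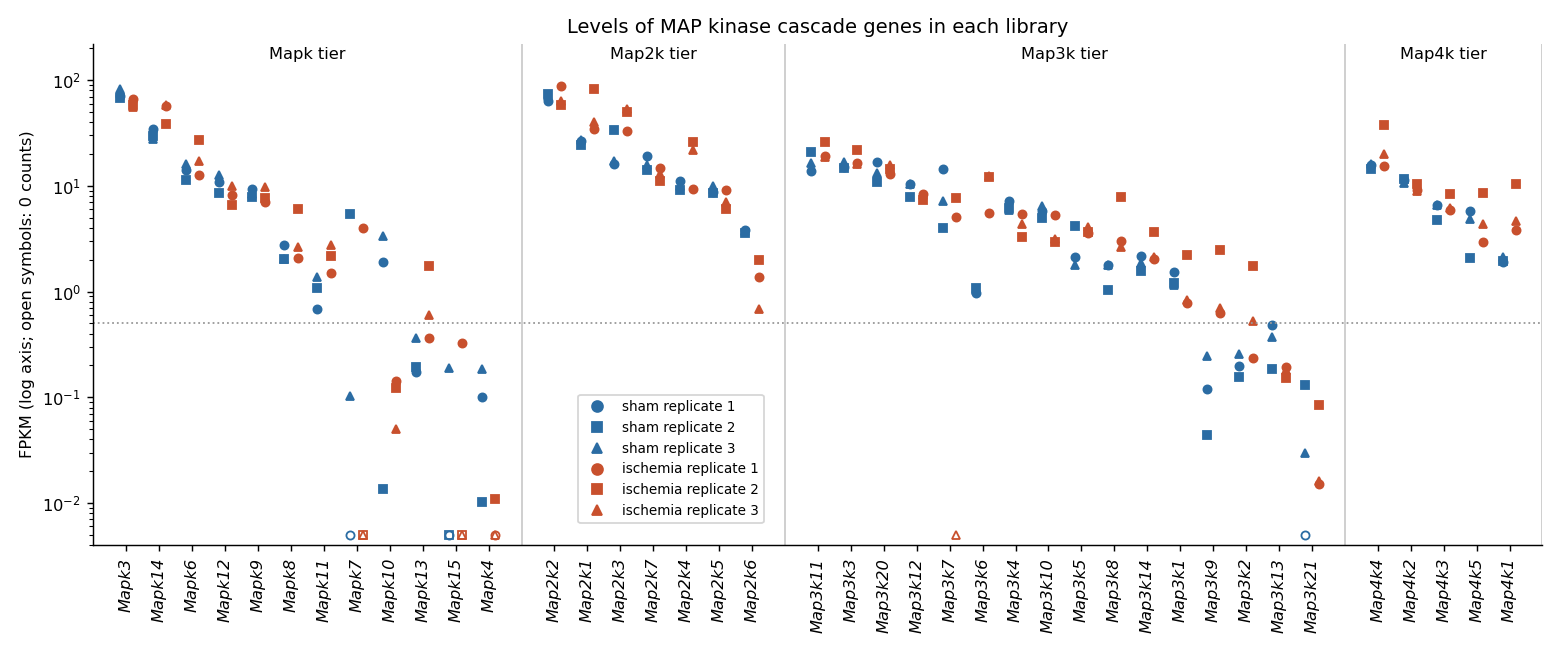
FPKM (log axis) of the kinase genes, with 1 left out, in each of the 6 libraries, by tier and ordered by mean level, with blue symbols for sham, red for ischemia, and open symbols at the bottom for 0 counts. Map3k6 shows a gap between the groups, with sham libraries between 0.979 and 1.07 and ischemia libraries between 5.54 and 12.4.

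The comparison asked which kinases of the relay changed in RNA level with ischemia. With the edgeR quasi-likelihood test, Map3k6 was the one kinase called, and it rose. The adjusted p passed 0.05 for 1 of the 37 tested kinases in the higher and 0 in the lower direction, where 5.18% of all 13964 tested genes were called higher and 1.53% lower. The share of kinases called was 2.70%, against 6.71% of all tested genes. At an unadjusted edgeR p under 0.05, 8 kinases were higher and 4 lower (21.6% and 10.8%), against 18.2% and 14.2% of all tested genes, and DESeq2 called 4 higher and 3 lower after adjustment, against 14.8% and 12.5%. FPKM of the groups did not overlap for 12 of the 37 kinases, 7 higher and 5 lower in ischemia, or 32.4% against a background of 38.6% (23.6% higher and 15% lower). After trimmed mean of M-values (TMM) scaling of the counts the numbers were 7 higher and 8 lower, against 22% and 19.1%. With a log2 fold change (log2FC) of at least 1 in size besides, 5 kinases were counted (Map3k6, Map3k9, Map3k8, Map4k1 and Map2k6), against 19.5% of all tested genes. Map3k9 had passed the FPKM filter through ischemia only, so its place in this count is not support. The same holds for Map3k9, Map3k2, Mapk13 and Mapk10 at an unadjusted p under 0.05, and for Map3k9 and Mapk10 with DESeq2, each of which passed through 1 group only. The median log2FC was 0.12 over the 37 kinases and -0.0015 over all tested genes, and the median size regardless of sign was 0.54 and 0.57. The median log2FC of the kinases turned to -0.099 at a mean FPKM of at least 5 and was 0.027 without ischemia replicate 2. The shares of kinases lay near those of all tested genes or below them.

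By tier, the median log2FC was -0.12 for the 11 tested Mapk genes, -0.094 for the 7 Map2k genes, 0.15 for the 14 Map3k genes and 0.26 for the 5 Map4k genes. The sign of each of the 4 medians turned under at least 1 alternative, to 0.33 in the Mapk and 0.076 in the Map2k tier without sham replicate 2, to 0.058 in the Map2k and -0.0081 in the Map4k tier without ischemia replicate 2, to 0.32 in the Map2k and -0.056 in the Map3k tier at a mean FPKM of at least 5, and to 0.0070 in the Map2k tier with total counts. The Mapk tier had 5 genes above 0, the Map2k tier 3, the Map3k tier 8 and the Map4k tier 4. The call of Map3k6 was lost when sham replicate 1, 2 or 3 or ischemia replicate 3 was left out, fits in which 0 of all tested genes passed with edgeR while 4 to 7 kinases were higher and 1 to 2 lower at an unadjusted p under 0.05 (from 12.7% to 15.2% of all tested genes were higher and from 7.62% to 12.1% lower), and 6 kinases were called higher and 1 lower without ischemia replicate 1. In that fit 10.7% of all tested genes were called higher and 7.99% lower.

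**Figure D2:**
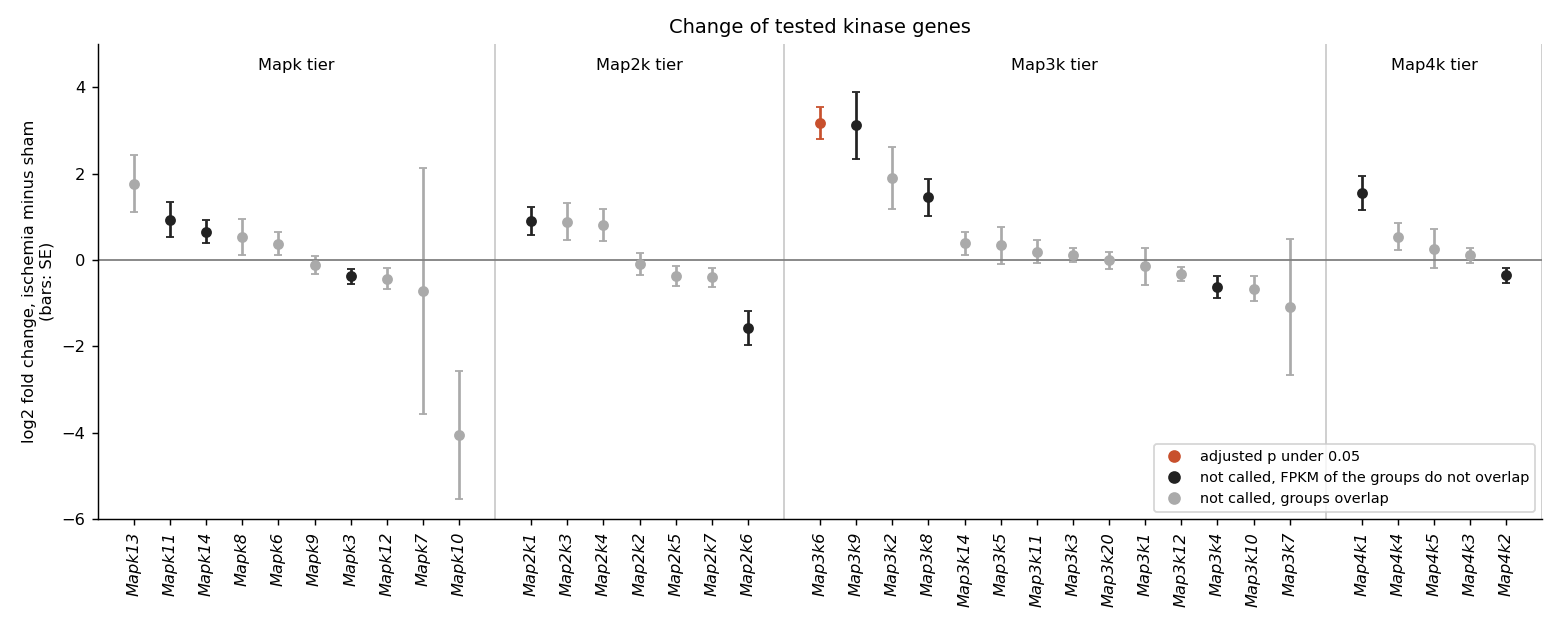
Log2 fold change of the tested kinase genes, with 1 left out, from edgeR, ischemia minus sham, with bars of 1 SE, ordered within each tier. Map3k6 (red) passed an adjusted p of 0.05, black marks genes not called whose FPKM did not overlap between the groups, and Mapk7, Mapk10 and Map3k7 carry the widest bars.

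Among the Map3k genes, which receive the upstream signal, Map3k6 rose. It encodes ASK2, a stress-activated kinase that forms a complex with ASK1, the product of Map3k5. The gene lies on chromosome 5 between 151436464 and 151448328 on the forward strand, in the coordinates of the deposited table, whose genome build is not given in the sources used here. Its FPKM was 0.979, 1.07 and 1.05 in sham against 5.54, 12.0 and 12.4 in ischemia. Counts were 324, 378 and 330 against 1982, 3907 and 3824. The sham values lay close together, and the lowest ischemia value stood well above them. The log2FC was 3.17 ± 0.37 (SE), an 8.996-fold higher level, with an edgeR adjusted p of 0.0272, and 97.9% of all tested genes had a lower or equal log2FC. Over 15 alternatives it ranged from 2.36 to 3.45, with adjusted p-values from 2.89e-13 (DESeq2) to 0.157 (edgeR without sham replicate 1, at 3.08). The study had selected Map3k6 on these samples, so its direction here is not independent evidence. It also reported a rise of Map3k6 by qRT-PCR in ischemic rat myocardium and in hypoxic cardiomyocytes. Map3k5 had FPKM values of 2.12, 4.16 and 1.77 in sham against 3.60, 3.65 and 4.05 in ischemia, which overlapped through sham replicate 2. Its log2FC was 0.34, and 0.97 without that library.

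Map3k9 and Map3k8 were also higher in every ischemia sample without passing. Map3k9 encodes MLK1, a mixed-lineage kinase that can activate the JNK branch, and its FPKM was 0.119, 0.0438 and 0.247 in sham against 0.634, 2.47 and 0.695 in ischemia. Counts of Map3k9 were 34, 14 and 67 in sham against 195, 687 and 183 in ischemia, so the sham level rested on few reads. The gene had passed the FPKM filter through ischemia only. The log2FC of Map3k9 was 3.12 ± 0.77 (SE), with an adjusted p of 0.0594 from edgeR and 0.000568 from DESeq2. It was 2.29 without ischemia replicate 2, 3.78 without sham replicate 3 and 0.91 with limma on log2(FPKM + 1), on which scale that of Map3k6 was 2.36. Map3k8 encodes TPL2, a kinase that activates MEK in inflammatory signaling. Its FPKM was 1.77, 1.03 and 1.80 in sham against 3.01, 7.80 and 2.65 in ischemia. The log2FC was 1.45 ± 0.43 (SE), with an adjusted p of 0.0849 from edgeR and 0.0126 from DESeq2.

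Both genes were highest in ischemia replicate 2, the library with the highest marker sums of neutrophils and monocytes, of T, B and NK cells and of endothelial cells. The part of those cells in their levels was not tested. Map3k2 (MEKK2, which acts on the Mapk7 branch) had FPKM values of 0.1995, 0.155 and 0.258 in sham against 0.233, 1.75 and 0.522 in ischemia, and the groups overlapped (log2FC 1.89, edgeR adjusted p 0.134). Without ischemia replicate 2 the log2FC was 0.87 for Map3k8 and 0.86 for Map3k2. Without ischemia replicate 1 Map3k2 and Map3k9 were called, at 2.315 (edgeR adjusted p 0.0447) and 3.41 (0.0409).

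Other Map3k genes lay closer to 0 or below it. Map3k4 (MEKK4, an activator of p38 and JNK signaling) was the only Map3k gene whose ischemia FPKM values all lay below sham, at 7.20, 6.13 and 5.93 in sham against 5.47, 3.32 and 4.39 in ischemia. Its log2FC was -0.63 ± 0.26 (SE, edgeR adjusted p 0.151). Map3k10 (MLK2) had -0.66 (edgeR adjusted p 0.168), and it was called lower without ischemia replicate 1 (-1.01, adjusted p 0.0342 in edgeR). After TMM scaling, all ischemia values of Map3k10 and of Map3k12 also lay below all sham values. The log2FC lay between -0.33 and 0.39 for Map3k14 (NIK, of the noncanonical NF-kB pathway), Map3k5, Map3k11, Map3k3, Map3k20 (ZAK, a sensor of stalled ribosomes), Map3k1 and Map3k12 (DLK), with edgeR adjusted p-values from 0.218 to 0.982. Standard errors of these 7 genes ranged from 0.17 to 0.43. Single libraries moved several of these values. Without ischemia replicate 2 Map3k14 was at 0.13, Map3k3 at 0.0095 and Map3k1 at -0.72, and Map3k11 ranged from 0.018 (without sham replicate 1) to 0.49 (without sham replicate 2).

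Among the Map2k genes, Map2k6 was lower in every ischemia sample. It encodes MKK6, which with MKK3 (Map2k3) activates the p38 kinases. FPKM of Map2k6 was 3.79, 3.59 and 3.73 in sham against 1.38, 1.97 and 0.677 in ischemia. The sham values were nearly equal, and even the highest ischemia value was well below them. The log2FC was -1.58 ± 0.39 (SE), with an adjusted p of 0.0586 from edgeR and 0.00104 from DESeq2. FPKM of Map2k3 was 16.0, 33.7 and 17.3 in sham against 33.1, 49.99 and 53.9 in ischemia. Sham replicate 2 overlapped the ischemia values, and the log2FC of 0.88 ± 0.43 (SE) had an edgeR adjusted p of 0.204. Without sham replicate 2 it was 1.47 (edgeR adjusted p 0.0820).

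Map2k1 (MEK1, an activator of ERK) was higher in every ischemia sample, with FPKM of 26.6, 24.4 and 27.0 in sham against 34.6, 83.3 and 40.0 in ischemia. The log2FC was 0.90 ± 0.32 (SE, edgeR adjusted p 0.114), and it rested largely on ischemia replicate 2, without which it was 0.48. Map2k4 (MKK4, an activator of JNK) had FPKM of 11.1, 9.09 and 10.03 in sham against 9.26, 25.9 and 21.7 in ischemia. Ischemia replicate 1 lay within the sham range, and the log2FC was 0.82 ± 0.37 (SE, edgeR adjusted p 0.180). Without ischemia replicate 1 both genes were called, at 1.10 for Map2k1 (edgeR adjusted p 0.0496) and 1.13 for Map2k4 (0.0226). Map2k2, Map2k5 (MEK5, the activator of Mapk7) and Map2k7 (MKK7, the other JNK activator) had log2FC values of -0.094, -0.38 and -0.40, and edgeR gave adjusted p-values of 0.816, 0.296 and 0.229. Without ischemia replicate 2 they were 0.058, -0.21 and -0.27, and without ischemia replicate 1 Map2k2 was at -0.31 and Map2k5 at -0.57.

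At the level of the MAP kinases, Mapk3 was lower in every ischemia sample, and Mapk14 and Mapk11 of the p38 genes were higher in every ischemia sample. The log2FC of Mapk3 was -0.37 ± 0.17 (SE), with an adjusted p of 0.188 from edgeR and 0.0869 from DESeq2. Mapk14 (p38 alpha, the most abundant p38 kinase here) had FPKM of 34.5, 29.7 and 28.0 in sham against 57.2, 38.1 and 57.7 in ischemia. The groups did not overlap in FPKM, but they did after TMM scaling, and the log2FC was 0.65 ± 0.26 (SE, edgeR adjusted p 0.146). Mapk11 (p38 beta) had FPKM of 0.691, 1.09 and 1.36 in sham against 1.49, 2.17 and 2.74 in ischemia, again without overlap (log2FC 0.93 ± 0.41, SE, edgeR adjusted p 0.170).

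The p38 genes lie in neighboring pairs, Mapk14 and Mapk13 on chromosome 20 with 23236 bases between them, and Mapk12 and Mapk11 on chromosome 7 with 1107 bases between them. The members of the second pair differed in direction. Mapk12 (p38 gamma, which is abundant in muscle) had FPKM of 10.8, 8.60 and 12.8 in sham against 8.16, 6.63 and 10.03 in ischemia, with overlap (log2FC -0.44, edgeR adjusted p 0.252, and -0.26 without ischemia replicate 2). Mapk13 (p38 delta) was low throughout, with 25, 30 and 50 counts in sham against 57, 247 and 80 in ischemia (log2FC 1.76, edgeR adjusted p 0.128). Mapk13 was highest in ischemia replicate 2, without which its log2FC was 0.95.

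Of the JNK kinases, Mapk8 (JNK1) and Mapk9 (JNK2) had log2FC values of 0.54 and -0.12, and edgeR gave adjusted p-values of 0.395 and 0.697. Without ischemia replicate 2 the log2FC of Mapk8 was 0.027. With 1 sample left out that of Mapk9 ranged from -0.32 (without ischemia replicate 3) to -0.040 (without ischemia replicate 1). Mapk10 (JNK3), known from brain, heart and testis, had a log2FC of -4.05 ± 1.48 (SE, edgeR adjusted p 0.123), but the sham libraries differed widely. Its FPKM was 1.90, 0.0135 and 3.39 in sham against 0.142, 0.122 and 0.0504 in ischemia. Counts were 442, 4 and 749 in sham against 36, 28 and 11 in ischemia. Sham replicate 2 had the lowest value of the 6 libraries, and it was also the library with the lowest sum of atrial muscle genes. The sums were 48340, 215 and 39200 in sham against 9610, 2078 and 1279 in ischemia. DESeq2 called Mapk10 lower (adjusted p 0.00737), though the gene had passed the FPKM filter through sham only. With 1 sample left out the log2FC of Mapk10 ranged from -4.64 to -3.19 (without sham replicate 3), and with limma on log2(FPKM + 1) it was -1.09. Mapk4, the atypical kinase ERK4, had 36, 4 and 62 counts in sham against 0, 4 and 0 in ischemia, so that both higher values fell in the libraries with the higher atrial sums. The part of atrial tissue in these levels was not tested. Mapk6, which encodes the atypical kinase ERK3, had a log2FC of 0.37 (edgeR adjusted p 0.351), which was 0.57 without ischemia replicate 1 and 0.091 without ischemia replicate 2.

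Of the Map4k genes, at the top of the relay, Map4k1 differed most. It encodes HPK1, a kinase known mainly from blood cells. FPKM was 1.92, 1.93 and 2.12 in sham against 3.83, 10.5 and 4.67 in ischemia, without overlap. The log2FC was 1.55 ± 0.38 (SE), with an adjusted p of 0.0594 from edgeR and 0.00275 from DESeq2. In ischemia its order over the libraries was that of the neutrophil and monocyte marker sum, which was 1299, 8707 and 2084 in replicates 1 to 3. The sums of T, B and NK cell markers (24.4, 31.3 and 25.5) and of endothelial markers (168, 215 and 205) had that order too. In sham replicates 1 to 3 Map4k1 had the order of the T, B and NK sum (14.0, 17.0 and 18.9). It did not have that of the neutrophil and monocyte sum there (155, 121 and 207). Of the 11 tested neutrophil and monocyte genes 8 were called higher with edgeR. The markers of T, B and NK cells summed to 14.0 to 18.9 in sham and 24.4 to 31.3 in ischemia, and 0 of 8 tested genes were called with edgeR, where 2 had an unadjusted p under 0.05 and DESeq2 called 2 higher. The part of blood cells in the level of Map4k1 was not tested. Map4k2 was lower in all ischemia samples, with FPKM of 11.3, 11.6 and 10.7 in sham against 9.05, 10.4 and 8.85 in ischemia (log2FC -0.35 ± 0.18, SE, edgeR adjusted p 0.209, and -0.21 without sham replicate 2). Map4k4, Map4k5 and Map4k3 had log2FC values of 0.54, 0.26 and 0.10 (edgeR adjusted p 0.266, 0.711 and 0.695). Without ischemia replicate 2 the log2FC was 1.05 for Map4k1 and 0.15 for Map4k4, and it turned to -0.20 for Map4k5 and -0.0081 for Map4k3. Without ischemia replicate 1 Map4k1 was called, at 1.78 (edgeR adjusted p 0.0281).

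**Figure D3:**
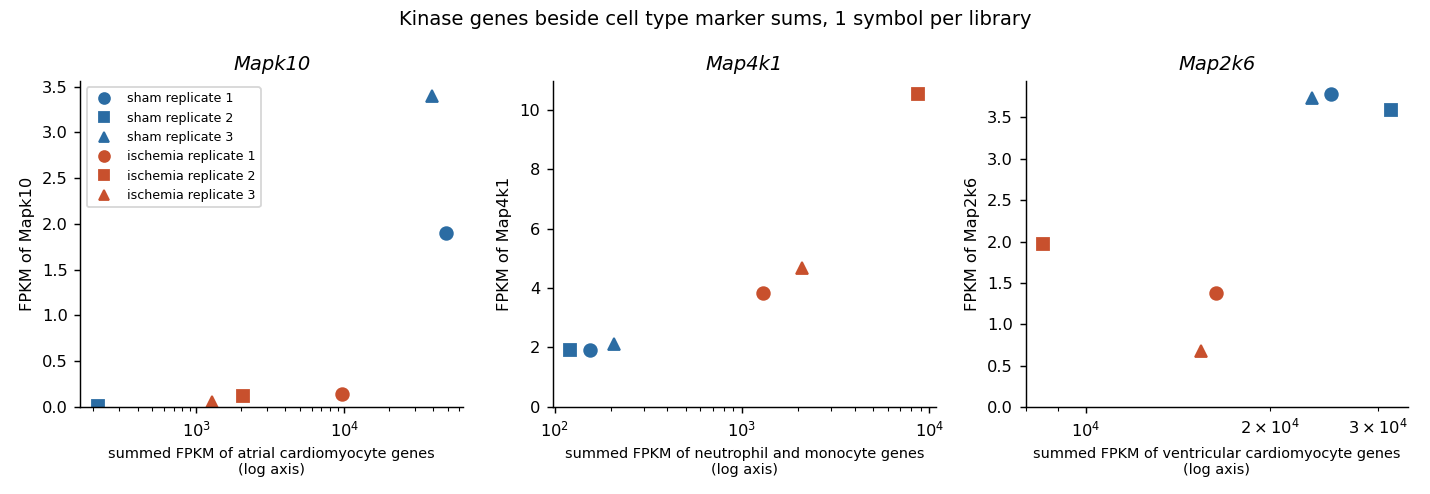
FPKM of Mapk10, Map4k1 and Map2k6 (vertical axes) against the summed FPKM of marker genes of atrial muscle, of neutrophils and monocytes, and of ventricular muscle (horizontal log axes), with 1 symbol per library. Mapk10 exceeded 1 only in sham replicates 1 and 3, the libraries with atrial sums of 48340 and 39200, and Map4k1 was highest in ischemia replicate 2, where the neutrophil and monocyte sum was 8707. Within ischemia Map2k6 was highest in replicate 2, where the ventricular sum was lowest (8521).

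Ventricular muscle genes also moved with the groups. Their summed FPKM was 23460 to 31510 in sham and 8521 to 16310 in ischemia, and of 6 genes found 3 (Myh6, Actc1 and Ryr2) were lower in all ischemia samples, though 0 were called with edgeR (3 at an unadjusted p under 0.05, and 3 lower with DESeq2). Kinases lower in ischemia, such as Map2k6 and Mapk3, stood beside this difference. Within the groups their order differed from that of the sum. Map2k6 was highest in ischemia replicate 2 (1.97), where the sum was lowest (8521), and lowest in sham replicate 2 (3.59), where the sum was highest (31510). Mapk3 was also lowest in sham replicate 2 (68.1), but highest in ischemia replicate 1 (66.6), where the sum was highest (16310). The part of muscle content in these kinases was not tested. Ischemia replicate 2, with the lowest ventricular sum, gave the highest FPKM of the 6 libraries for 16 of the 37 kinases (43.2%) and for 39.3% of all tested genes. Sham replicate 2 gave the lowest for 14 (37.8%) and for 40.6% of all tested genes.

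The balance between related kinases was described as the share of each gene in the summed FPKM of its family, which does not depend on library scaling. In all, 25 shares were computed, and 11 did not overlap between the groups. Each of these 11 had the exact permutation p of 0.1 (two-sided), the smallest that 3 against 3 samples can give, and 0.227 after Benjamini-Hochberg adjustment over the 25 shares, so none could pass. The families of ASK and of mixed-lineage kinases were formed after their values were seen, and they are counted among the 25 shares. No background over families of other genes was computed.

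The largest difference lay between the ASK genes. As this family was formed after its values were seen and holds Map3k6, the one kinase called, its rank is not separate evidence. Map3k6 made up 31.6%, 20.5% and 37.1% of the summed FPKM of Map3k5 and Map3k6 in sham against 60.6%, 76.7% and 75.4% in ischemia. Its mean share was 29.7% ± 8.4 (SD, n = 3) among sham and 70.9% ± 8.9 (SD, n = 3) among ischemia libraries, so that the more abundant ASK transcript was Map3k5 in every sham library and Map3k6 in every ischemia library. Among the p38 activators, the share of Map2k6 was 19.1%, 9.63% and 17.7% in sham against 4.01%, 3.79% and 1.24% in ischemia. Map2k3 held the remainder and was the major transcript in each library.

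Among the p38 kinases, Mapk14 held 74.6%, 75.1% and 65.9% in sham against 85.1%, 78.3% and 81.2% in ischemia, and Mapk12 held 23.5%, 21.7% and 30.1% against 12.1%, 13.6% and 14.1%. The summed FPKM of the p38 genes averaged 42.8 ± 3.3 in sham against 62.3 ± 12.0 in ischemia (SD, n = 3 each), without overlap in FPKM. Unlike the shares, this sum depends on library scaling, and its overlap after TMM scaling was not tested. Mapk14, its largest part, did overlap after that scaling, with 129 in sham replicate 2 against 124.8 in ischemia replicate 2. In the JNK family the share of Mapk8 averaged 18.4% ± 3.1 in sham against 29.0% ± 12.3 in ischemia (SD, n = 3 each), with 43.2% in ischemia replicate 2, without which the difference of 10.6 percentage points was 3.50.

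The MEK and JNK activator pairs differed from sham in 2 of the 3 ischemia libraries. Map2k1 held 29.4%, 24.6% and 27.7% of the Map2k1 and Map2k2 sum in sham against 28.3%, 59.0% and 38.7% in ischemia. Map2k4 held 36.9%, 39.3% and 38.9% of the Map2k4 and Map2k7 sum in sham against 38.4%, 70.0% and 62.8% in ischemia. In both pairs ischemia replicate 1 lay within the sham range, and replicates 2 and 3 lay above it. Over all 41 genes, the Map2k tier took 32.02%, 37.1% and 33.0% of the summed FPKM in sham against 37.8%, 38.9% and 38.8% in ischemia, and the Mapk tier 39.1%, 37.8% and 40.2% against 37.1%, 29.4% and 35.3%.

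**Figure D4:**
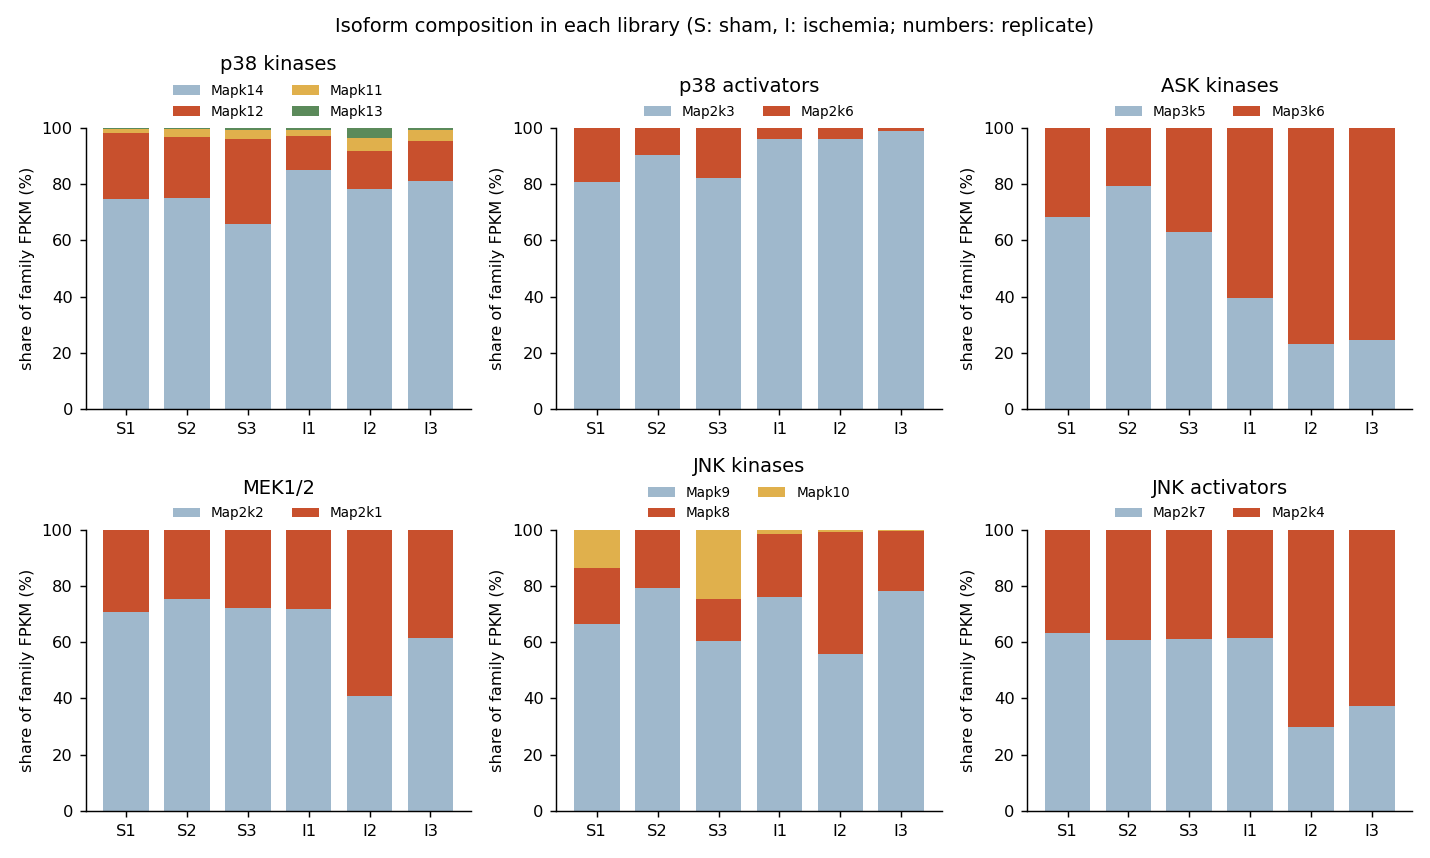
Share of each gene (percent) in the summed FPKM of its family in each library, for 6 families, with S for sham and I for ischemia. The share of Map3k6 among the ASK kinases is at most 37.1% in sham and at least 60.6% in ischemia, and that of Map2k6 among the p38 activators is at least 9.63% in sham and at most 4.01% in ischemia.

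Genes were then listed that had 0 counts in some library although a replicate of it held at least 100. Among the 41 kinases these were Mapk7 and Map3k7, against 329 of all 32623 rows (1.008%). Mapk7 encodes ERK5, a kinase of the endothelial and cardiac stress response. Its counts were 0, 2344 and 41 in sham against 1772, 0 and 0 in ischemia. The gene was thus seen at a clear level in 1 library of each group and at 0 in 3 libraries. Its log2FC of -0.73 had an SE of 2.85 (edgeR adjusted p 0.875), and it was 4.71 without sham replicate 2 and -12.8 without ischemia replicate 1. The last 1804 bases of Mapk7, on the minus strand of chromosome 10 (47766680 to 47775055), overlap Mfap4, a matrix gene on the plus strand (47765432 to 47768483). Counts of Mfap4 were 5645, 5030 and 13398 in sham against 2292, 0 and 618 in ischemia, so it too was at 0 in ischemia replicate 2. Whether the counting used strand is not given in the sources used here, although the library kit was stranded.

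Map3k7 encodes TAK1, a kinase that links cytokine receptors to the p38, JNK and NF-kB pathways. Its counts were 4576, 1361 and 2165 in sham against 1742, 2430 and 0 in ischemia. A count of 0 in ischemia replicate 3 stood beside at least 1361 counts in every other library, and the lone gene that overlaps it in the table, on the other strand, had at most 3 counts. The log2FC of -1.09 ± 1.58 (SE) had an edgeR adjusted p of 0.651, and it was -0.50 without ischemia replicate 3, -0.54 without sham replicate 1 and -1.77 without ischemia replicate 2. Map2k5, the activator of Mapk7, was seen in all libraries, with 1532, 1578 and 1676 counts in sham against 1723, 1043 and 1155 in ischemia.

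**Figure D5:**
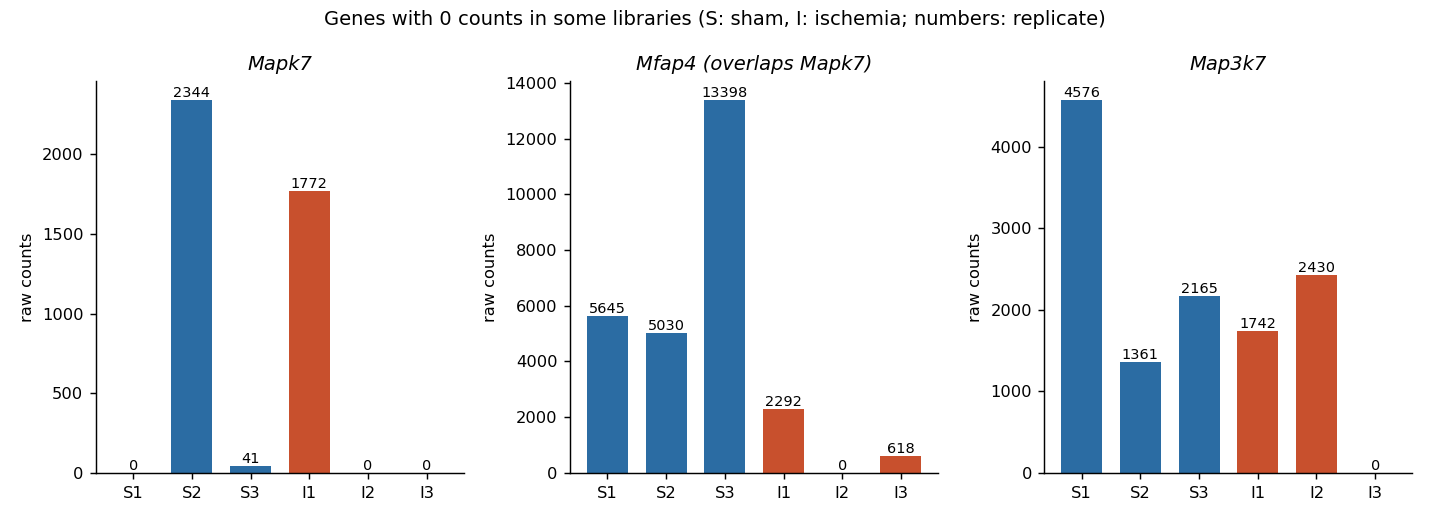
Raw counts of Mapk7, of Mfap4, which overlaps it on the opposite strand, and of Map3k7 in each library, with S (blue) for sham and I (red) for ischemia. Mapk7 is at 0 in 3 libraries, Mfap4 in ischemia replicate 2, and Map3k7 in ischemia replicate 3.

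Other genes of the cascade were taken from lists of its regulators and targets. Of all tested genes, edgeR called 5.18% higher and 1.53% lower, DESeq2 called 14.8% higher and 12.5% lower, and 18.2% were higher and 14.2% lower at an unadjusted edgeR p under 0.05. Of 4 tested RAF-type kinases, which start the ERK branch, 0 were called with edgeR or DESeq2 (1 had an unadjusted p under 0.05), and Araf was lower in all ischemia samples (log2FC -0.63, edgeR adjusted p 0.126). Of 9 other upstream kinases and of 17 scaffolds and adaptors 0 were called with edgeR. At an unadjusted p under 0.05, 4 of the upstream kinases were higher and 2 lower, and 3 of the scaffolds were higher and 3 lower, and DESeq2 called 1 higher and 2 lower, and 3 higher and 1 lower. Of 10 kinases downstream of the MAP kinases edgeR called 0 higher and 1 lower, where 3 were higher and 1 lower at an unadjusted p under 0.05 and DESeq2 called 2 higher and 1 lower. The gene called lower with edgeR was Rps6ka2 (an RSK kinase), with a log2FC of -1.34 ± 0.29 (SE, edgeR adjusted p 0.0484). Of 9 dual-specificity phosphatases, which switch MAP kinases off, edgeR called 2 higher and 0 lower, where 3 were higher and 0 lower both at an unadjusted p under 0.05 and with DESeq2. The genes called with edgeR were Dusp2 (2.91 ± 0.49, SE, edgeR adjusted p 0.0351) and Dusp7 (1.36 ± 0.29, SE, 0.0485). Of 7 inhibitors of the ERK branch, mostly Sprouty and Spred genes, edgeR called 1 higher, Spred3, with 4.04 ± 0.47 (SE, edgeR adjusted p 0.0272), where 3 were higher at an unadjusted p under 0.05 and 2 with DESeq2. Of 13 transcription factors known as MAP kinase targets edgeR called 2 higher, Myc (4.29 ± 0.35, SE, edgeR adjusted p 0.0246) and Junb (2.63 ± 0.37, SE, 0.0291), where 3 were higher both at an unadjusted p under 0.05 and with DESeq2. Myc and Dusp2 were also selected by the study on these samples, and it reported a rise of both by qRT-PCR in ischemic myocardium and hypoxic cardiomyocytes. Median log2FC values were -0.27 for the RAF-type kinases, 0.45 for the other upstream kinases, 0.18 for the scaffolds, 0.21 for the downstream kinases, 0.55 for the phosphatases, 1.25 for the inhibitors and 0.36 for the transcription factors.

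Promoter sequences, from 250 bases before to 50 after the start of each gene, were taken from RefSeq in the build GRCr8 and matched 36 of the 41 kinases by symbol. They were searched on both strands for motifs of stress and inflammatory factors. A pair of heat shock units (TTCNNGAA) was found in 2 of the 36, Map3k6 and Map3k13, or 5.56%, against 8.77% of 33469 promoters, and the reverse arrangement (GAANNTTC) in 1, against 8.59%. These patterns can overlap one another. The NF-kB motif was found in 8 of the 36 (22.2%), against 7.51% of all promoters, namely in Map2k1, Map3k8 and Map4k1, which were higher in every ischemia sample (as were 23.6% of all tested genes), in Map4k2, which was lower, in Map3k1, Map3k11 and Mapk8, which overlapped, and in Map3k13, which was not tested. The AP-1 motif (TGANTCA) was found in 2, against 7.33%, the cAMP response element (TGACGTCA) in 2, against 1.83%, the hypoxia response core (ACGTG) in 7, or 19.4%, against 19.3%, and the CArG box of serum response elements in 1, against 1.64%. A match describes letters in this window and not a bound site. Heat shock and NF-kB matches of kinases that were higher in every ischemia sample are shown with 30 bases each, to give the letters behind these counts, with the motif in capitals.
Map3k6, heat shock pair, chr5:150724063-150724092, plus strand: ggcacaggctgTTCCGGAAgtggacagtgt
Map3k8, NF-kB motif, chr17:58078165-58078194, plus strand: gtgggaggacGGAATTTCCCatcgcggggg
Map4k1, NF-kB motif, chr1:93398420-93398449, plus strand: agggagtaaaGGGGAGTCCCatcagtccca
Map2k1, NF-kB motif, chr8:73650261-73650290, minus strand: tgggttgggcGGAGGGTCCCaggagcgtgg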

How the data were processed

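The deposited table gave raw counts per Ensembl gene. The FPKM values deposited by the authors were scaled to gene length and library size, with genes without reads set to 0.0001. The submitters' processing notes name STAR and HTSeq, without versions; the genome build and the counting rule were not given in the sources used here. Samples were grouped by their titles. The kinases and gene lists were chosen with earlier results of these data known. Every kinase was accounted for in the counts, 1 of them and 1 other cascade gene are not reported here by name, and values per sample were given for called kinases, for kinases without overlap and an absolute log2 fold change of at least 1, for the highest of each tier, for erratic zeros and for compared isoforms. Called genes of the other cascade lists were given by fold change. Beyond that rule, Mapk4, Mapk13, Map2k5, Map3k2, Map3k4, Map4k2, Mfap4 and Araf, and the motif searches, were chosen after values were seen.

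Counts of the 13964 genes whose FPKM averaged 0.5 or more were scaled by TMM and compared with the edgeR quasi-likelihood test, two-sided, with Benjamini-Hochberg adjustment over all tested genes and a threshold of 0.05. SEs came from the F statistic, and the test was tested on simulated data. At this depth 3 counts correspond to 0.0377 to 0.0438 CPM, which covers counting error only. Alternatives were DESeq2, limma on log2(FPKM + 0.1) and log2(FPKM + 1), other scalings and filters, the replicate block and each sample left out. The versions were Python 3.11.15 and R 4.3.3 with DESeq2 1.42.0, limma 3.58.1 and edgeR 4.0.16.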

Additional observations from a re-analysis of the deposited data

How the results depend on the processing

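All alternatives were planned. Map3k6 stayed called under median-ratio and total-count scaling, without the mitochondrial genome, under both other filters, and with DESeq2 and limma. DESeq2 called 4 kinases higher and 3 lower, of which 3 higher lay in the Map3k tier, 1 higher in the Map4k tier, 1 lower in the Map2k tier and 2 lower in the Mapk tier. With the replicate block 0 were called higher, 0 in the Map3k tier, and 0 of all tested genes, with 3349 genes at an unadjusted edgeR p under 0.05, and Map3k6 was at 3.09 (edgeR adjusted p 0.0943). The labels do not say what same-numbered samples share beyond a number. The correlations of their deviations ranged from -0.19 to -0.070. These cannot decide whether a batch was shared, since the deviations within a group of 3 are tied to one another. Across the fits that leave out 1 sample, kinases called higher ranged from 0 to 6 and lower from 0 to 1, while from 0% to 10.7% of all tested genes were called higher and from 0% to 7.99% lower. By tier, calls ranged from 0 to 2 higher (Map2k), from 0 to 3 higher and 0 to 1 lower (Map3k), and from 0 to 1 higher (Map4k).

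The median log2 fold change of all kinases was 0.22 with total counts, 0.20 and 0.19 with limma at pseudocounts of 0.1 and 1, and -0.099 at a mean FPKM of at least 5, where 22 kinases were tested; with that filter the medians of the Map2k and Map4k tiers were 0.32 and 0.058. Total counts shifted the median of all tested genes to 0.089. With 1 sample left out the median ranged from 0.027 to 0.19 over all kinases, from -0.19 to 0.33 in the Mapk tier, from -0.31 to 0.076 in the Map2k tier, from 0.061 (without ischemia replicate 2) to 0.28 (without sham replicate 2) in the Map3k tier and from -0.0081 to 0.52 in the Map4k tier. Of the 37 kinases 31 kept their direction throughout. Map2k2 turned to 0.0070 with total counts, and Map3k20 to 0.068 with total counts, 0.011 without a filter, and 0.081 and 0.075 with limma. With 1 sample left out, Map2k2 ranged from -0.31 to 0.076, Map3k20 from -0.13 to 0.12, Map3k1 from -0.72 to 0.079, Map4k5 from -0.20 to 0.52, Map4k3 from -0.0081 to 0.17 and Mapk7 from -12.8 to 4.71. The causes were not tested. With thresholds of 50 and 200 counts, 3 and 2 kinases had erratic zeros. Depth limits mainly Mapk13, Map3k9 and Map3k2, which had fewer than 100 counts in every sham library, and Mapk10. The last had 36, 28 and 11 counts in ischemia replicates 1 to 3 and 4 in sham replicate 2.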
